A study of Homo sapiens with 30 samples.

Results

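Nascent transcription was compared between 2 inhibitors of protein arginine methylation in A549 cells, an established human lung adenocarcinoma line, after 4 days of exposure. The comparison uses 4 of the 30 PRO-seq libraries of the series: 2 of cells given 1 µM GSK591, an inhibitor of PRMT5, and 2 of cells given 1 µM MS023, an inhibitor of the Type I arginine methyltransferases, each in 0.01% DMSO. All genes of the deposited count table entered, 58780 in number, of which 22919 had enough reads to be tested. Untreated cells (2 libraries), labelled as 15 min in 0.01% DMSO and so not a 4 day vehicle culture, and cells at 2 and 7 days of the same inhibitors at the same dose (2 libraries each) place the difference. The remaining libraries of the series, which involve dexamethasone, entered only the filter on low counts, the scaling and the estimate of the spread. A549 is a single tumour line, and nothing in the labels says whether replicate libraries came from separate cultures, so p-values measure the spread between these libraries, which may be technical.

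In PRO-seq, polymerases caught on the DNA add a labelled base to the RNA they are making and that RNA is sequenced, so it reports where polymerase is at work and not the amount of mature RNA. PRMT5 is the main enzyme that places symmetric dimethylation on arginine, while the Type I enzymes, of which PRMT1 is the most active in most cells, place asymmetric dimethylation. Both marks lie on histone tails and on many RNA-binding and splicing proteins, and the enzymes can compete for the same arginines, which is why the inhibitors are often studied side by side.

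The libraries held 10031609 and 10529388 counted reads with GSK591 and 10936943 and 11662350 with MS023. Mitochondrial genes took 69.5% and 70.3% of the counts with GSK591 and 64.9% and 66.1% with MS023, so that 2679152 to 3482686 counts per library lay outside mitochondrial and ribosomal RNA genes. Replicates correlated at r = 0.979 with GSK591 and 0.983 with MS023 across 11117 genes, which are not independent replicates. Lung epithelial markers summed to 4471 to 6790 counts per library in the 2 inhibitor groups and untreated cells, led by the keratins KRT7 and KRT8, while the surfactant gene SFTPA2 and the lung lineage factor NKX2-1 had at most 5 and 3 counts. Markers of fibroblasts summed to 7 to 17 counts and those of endothelium to 8 to 30. The 6 leukocyte markers summed to 120 to 183 counts, nearly all from CSF1R (71 to 116) and CD14 (12 to 58), while CD3E was at 0 in all 6 libraries.

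Levels below are TMM-scaled CPM, a gene's counts relative to its library's scaled total, and a difference is the log2 ratio of GSK591 over MS023, so that negative values mean less nascent RNA with GSK591. A gene is called when edgeR's quasi-likelihood test gave a Benjamini-Hochberg adjusted p below 0.05 over all 22919 genes. Of these, 1382 genes (6.03%) were called between the inhibitors. GSK591 gave the lower level in 806 (3.52%) and the higher level in 576 (2.51%). The difference passed 2-fold in 545, with 331 lower and 214 higher, and the median over all genes tested was 0.00. In every called gene both libraries of 1 inhibitor lay above both of the other. The calls were made from these same libraries, so this adds no support to them.

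The count rests on each library and on the scaling. It fell to 594 without GSK591 replicate 1, 641 without GSK591 replicate 2, 740 without MS023 replicate 1 and 599 without MS023 replicate 2, where the lone library is assumed to vary like the other groups. Scaling by total counts, which include the mitochondrial reads, moved the median of all genes to -0.33 and the share of calls that were higher with GSK591 from 41.7% to 5.9%, so directions here are relative to the median gene.

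**Figure D1:**
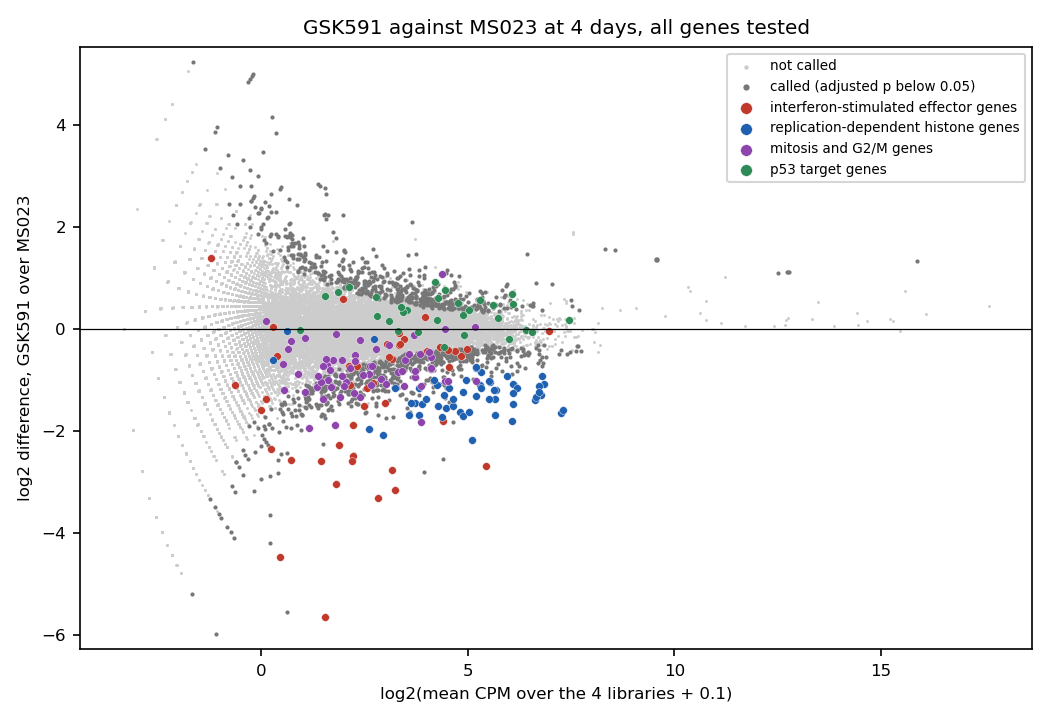
Each point is a gene tested: mean level over the 4 libraries on the x axis (log2 of CPM plus 0.1), log2 difference of GSK591 over MS023 at 4 days on the y axis, called genes in dark grey and members of 4 gene lists in colour. Histone genes lie between -2.17 and -0.04, and the genes farthest below 0 include interferon genes.

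All calls among antiviral effector genes were toward lower levels with GSK591. These interferon-stimulated genes encode proteins that block viruses, among them the MX GTPases, the OAS enzymes that sense double-stranded RNA and the IFIT proteins that bind foreign RNA. In most cells they are switched on by a complex containing IRF9 that binds a repeat of GAAA in their promoters. Of 52 effector genes listed, 46 had enough counts to be tested; 23 were lower with GSK591 and none was higher (33 had an unadjusted p below 0.05 in edgeR, and DESeq2 called 16 lower and none higher). The median difference of the 46 was -0.91.

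HELZ2, a helicase coactivator induced by interferon, had 12.5 and 10.7 CPM with GSK591, 74.9 and 75.1 with MS023 and 15.3 and 16.5 in untreated cells. Both MS023 libraries stood far above the other 4, and the GSK591 libraries were the lowest. The difference was -2.69 (SE 0.13, adjusted p = 1.6e-21). MX1 had 2.11 and 1.60 CPM with GSK591, 15.5 and 18.1 with MS023 and 2.67 and 3.12 untreated, a difference of -3.16 (SE 0.26, adjusted p = 4.2e-13). A gene on the opposite strand shares exon sequence with it.

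IFIT1 had 1.73 and 2.81 CPM with GSK591 against 13.6 and 17.4 with MS023, and 1.33 and 1.41 untreated (difference -2.78, SE 0.255, adjusted p = 1.3e-11). OASL, an OAS relative, had 1.54 and 1.00 CPM against 12.4 and 13.2, with 1.22 and 0.806 untreated (difference -3.31, SE 0.316, adjusted p = 4.5e-11). In IFIT1 and OASL the GSK591 libraries were close to the untreated ones and the MS023 libraries did not overlap either group. OAS3 had 9.32 and 9.43 CPM with GSK591, 34.3 and 31.7 with MS023 and 13.3 and 14.3 untreated (difference -1.81, SE 0.146, adjusted p = 3.1e-13).

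The gap came with a rise under MS023. Against untreated cells, MS023 called 3247 genes in all (14.2%), 1788 higher (7.8%) and 1459 lower (6.37%), and among the 46 effector genes it called 32 higher and none lower, with a median of 1.10. GSK591 called 3941 genes (17.2%), 2043 higher (8.91%) and 1898 lower (8.28%). Among the effector genes it called 6 higher and 3 lower, with a median of 0.10. These comparisons share the untreated libraries, so the values stand side by side. With total counts, 99.0% of the MS023 calls and 93.5% of the GSK591 calls were higher than untreated, beside 55.1% and 51.8% here. Leaving out any 1 of the libraries compared gave 1475 to 1936 and 2140 to 2375 calls. HELZ2 gave 2.23 for MS023 over untreated cells (adjusted p = 6.7e-19), beside -0.46 for GSK591 (adjusted p = 0.022). IFIT1 was 3.49 above untreated with MS023 (adjusted p = 2.3e-13), and 0.71 with GSK591 did not pass the test (adjusted p = 0.18).

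Not every listed gene was called. RNF213, a large ubiquitin ligase, had 127 and 120 CPM with GSK591 and 132 and 121 with MS023 (difference -0.04, adjusted p = 0.92), and USP18, which damps the interferon receptor, had 4.51 and 4.71 against 3.20 and 2.92 (0.59, adjusted p = 0.27). Both were chosen after their values were seen, as genes of the list that were not called. USP18 lay toward higher levels with GSK591, without overlap of the libraries. IFI6 was nearly silent except with MS023: it had 0 and 2 counts with GSK591, 64 and 92 with MS023 and 3 and 3 in untreated cells, too few to give a ratio.

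The upstream part of the pathway moved less. Of 32 sensing and signalling genes, 27 were tested, 6 were lower with GSK591 and none was higher, with a median of -0.23. IRF7, the factor that amplifies interferon production, had 14.3 and 13.0 CPM with GSK591, 28.8 and 32.5 with MS023 and 19.5 and 17.3 untreated (difference -1.16, SE 0.134, adjusted p = 1.0e-08). IRF9, a DNA-binding factor of the interferon response, had 3.94 and 3.41 against 7.67 and 8.62 (-1.14, adjusted p = 0.0012), and a gene on the same strand shares exon sequence with it. The RNA sensor IFIH1 had 2.02 and 1.10 against 4.48 and 5.06 (-1.60, adjusted p = 0.0018), a call lost without GSK591 replicate 2 (adjusted p = 0.113).

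The 8 receptors and kinases tested lay between -0.34 and 0.23, none with an unadjusted p below 0.05 in edgeR. The interferon ligand genes were not tested. In the 4 day and untreated libraries, IFNB1 had no count and IFNL1 at most 6 in a library. Without GSK591 replicate 2, 2 signalling genes kept a call, and 3 did without any other single library of the 4. In the MHC class I list, B2M, the light chain (-0.62, adjusted p = 0.03), and HLA-E, a heavy chain (-0.50, adjusted p = 0.017), were lower and the other 17 of 19 were not called. B2M and HLA-E were called by DESeq2 in neither case and kept their call in 1 and in 0 of the 4 fits that left out a library.

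The promoters of the genes in the gap carry the interferon motif at a high rate, and 2 are shown because the motif is repeated in them. The motif searched was GAAANNGAAA on either strand, in windows of 250 bases before to 50 after each RefSeq gene start (GRCh38.p14). The stretches lie upstream of the RefSeq start, on the strand of the gene, with matches in capitals. IFI6 is at chr1:27672273-27672352, minus strand, and IFIT1 at chr10:89392478-89392557, plus strand. IFI6 was chosen after its values were seen.
IFI6: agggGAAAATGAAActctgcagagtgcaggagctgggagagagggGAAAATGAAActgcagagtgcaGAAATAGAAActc
IFIT1: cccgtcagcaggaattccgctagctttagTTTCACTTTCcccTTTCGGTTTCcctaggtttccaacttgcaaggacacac
IFI6 held 3 matches and IFIT1 2, the latter read on the opposite strand. Of effector genes called lower, 12 of the 19 with a window held a match (63.16%), and of those tested and not called, 13 of 18 did (72.22%), against 511 of 13189 tested genes with a window (3.87%). The motif thus marked the list as a whole and was no more frequent in its called members.

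**Figure D2:**
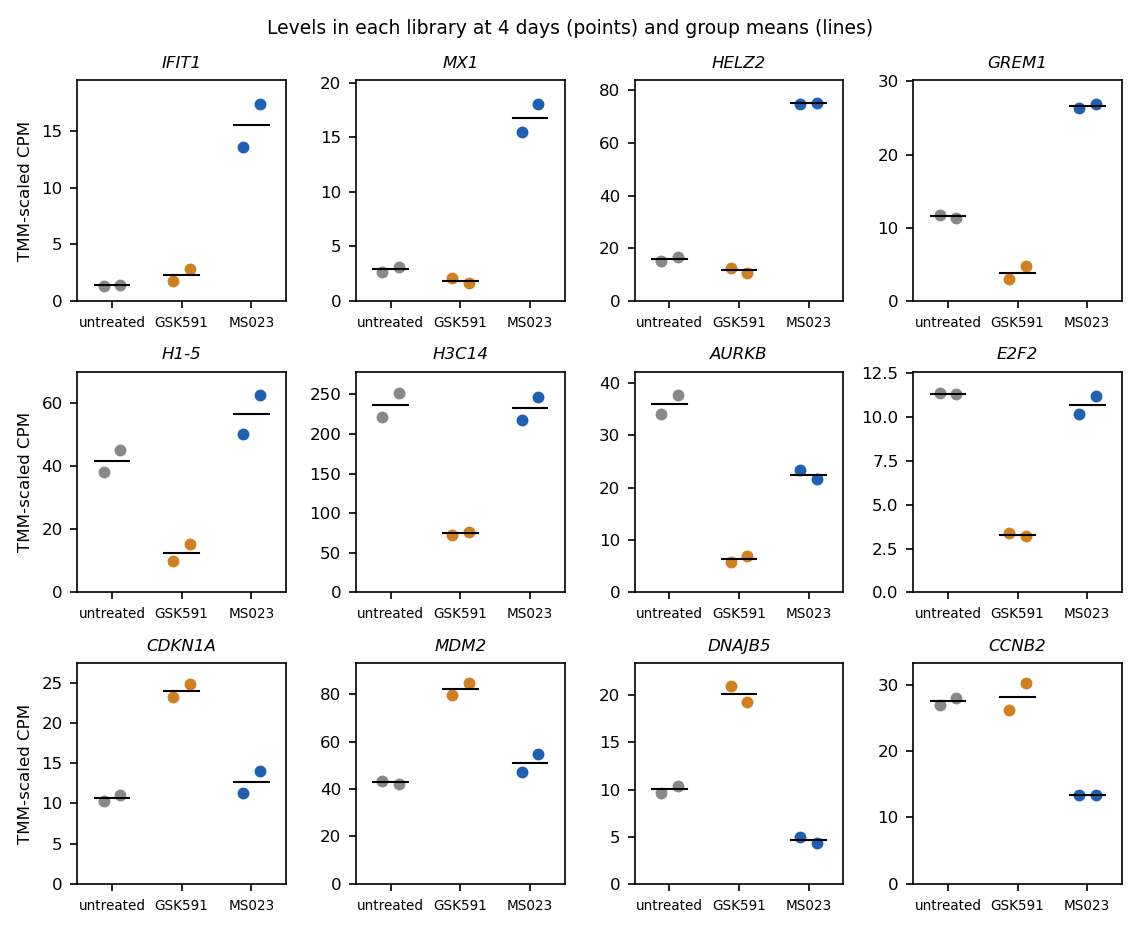
Levels of 12 genes in TMM-scaled CPM on the y axis, with 2 libraries (points) and their mean (line) for untreated cells, GSK591 at 4 days and MS023 at 4 days. IFIT1, MX1 and HELZ2 are high only in the MS023 libraries, and H1-5, H3C14 and E2F2 are low only in the GSK591 libraries. CDKN1A and MDM2 are highest in the GSK591 libraries.

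Of the 28 lists, that of histone genes had the highest share of called members. The replication-dependent histone genes are short, intronless genes in clusters on chromosomes 6 and 1 that are transcribed in S phase and supply histones for newly copied DNA. Of 71 listed, 56 were tested and 53 were lower with GSK591; none was higher in edgeR or in DESeq2, which also called 53 lower. The median was -1.29 and the range -2.17 to -0.04. By family, all 4 H1, 12 H2A and 13 H4 genes tested were lower, as were 14 of 15 H2B and 10 of 12 H3 genes. The 3 that were not called were H2BC7 (-0.61, adjusted p = 0.584), H3C6 (-0.20, adjusted p = 0.735) and H3-4 (-0.04, adjusted p = 0.978), named after their values were seen.

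H1-5, a linker histone gene at 6:27866849-27867529 in GENCODE 29 on GRCh38, had 9.89 and 15.1 CPM with GSK591, 49.96 and 62.5 with MS023 and 37.9 and 44.9 untreated. The GSK591 libraries were the lowest of the 6 without overlap, and the difference was -2.17 (SE 0.189, adjusted p = 2.0e-08). H2BC14 had 3.07 and 2.81 CPM with GSK591, 11.7 and 13.2 with MS023 and 8.23 and 8.77 untreated (-2.08, SE 0.212, adjusted p = 3.5e-10). H3C14 had 72.2 and 76.9 CPM with GSK591, 218 and 247 with MS023 and 222 and 251 untreated (-1.64, SE 0.11, adjusted p = 5.3e-16).

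H3C14 and H3C15 (-1.59), and likewise H4C14 (-1.34) and H4C15 (-1.40), are near-identical copies that overlap neighbours on the opposite strand, so the split of reads between them is uncertain. H2AC16 (2.79 and 2.11 CPM against 8.67 and 10.5, -1.96, adjusted p = 1.1e-07) overlaps 1 gene on its own strand.

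Against untreated cells GSK591 called 48 of the 56 lower and none higher, with a median of -0.95, while MS023 called 17 higher and none lower, with a median of 0.31. H2BC14 shows both movements, -1.53 for GSK591 (adjusted p = 1.7e-06) beside 0.55 for MS023 (adjusted p = 0.033). H3C14 was -1.67 with GSK591 (adjusted p = 2.4e-16) and -0.03 with MS023 (adjusted p = 0.91).

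The octamer, which the factor OCT1 binds in H2B promoters, is shown in 3 H2B promoters chosen for a like distance from the start. The motif searched was ATTTGCAT on either strand in the same windows, and capitals mark it. H2BC14 is at chr6:27814938-27815017 on the plus strand, H2BC11 at chr6:27132799-27132878 and H2BC18 at chr1:149812376-149812455 on the minus strand, the last 2 chosen after their values were seen.
H2BC14: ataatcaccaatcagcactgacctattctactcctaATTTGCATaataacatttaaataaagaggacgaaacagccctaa
H2BC11: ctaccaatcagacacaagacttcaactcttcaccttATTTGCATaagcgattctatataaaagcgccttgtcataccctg
H2BC18: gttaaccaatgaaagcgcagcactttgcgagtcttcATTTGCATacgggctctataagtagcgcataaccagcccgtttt
The octamer began 48, 47 and 49 bases before the RefSeq start. In H2BC6, H2BC3, H2BC4 and H2BC17 it began 108, 120, 123 and 149 bases before it. It was found in 10 of the 14 H2B genes called lower (71.43%), in 7 of 30 other histone genes called lower that had a window (23.33%) and in 252 of 13189 tested genes with a window (1.91%). The median difference was -1.51 over the 15 H2B genes tested and -1.23 over the 13 H4 genes.

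Calls among genes of DNA replication and of mitosis were nearly all toward lower levels with GSK591. The replication list holds the helicase and its loaders, the polymerases and the E2F factors that switch them on. Of its 55 genes 21 were lower with GSK591 than with MS023 and none was higher in edgeR (DESeq2 called 18 lower and none higher), with a median of -0.64. Against untreated cells GSK591 called 42 lower (median -1.20) and MS023 20 lower (median -0.50), and neither called any higher. Between the inhibitors, 9 of 17 genes of the helicase and its loading and 4 of 7 G1/S regulators were lower.

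E2F2, a transcription factor for entry into S phase, had 3.36 and 3.21 CPM with GSK591, 10.2 and 11.2 with MS023 and 11.3 in both untreated libraries. Only GSK591 set it apart, with a difference of -1.70 (SE 0.212, adjusted p = 7.0e-08). MCM5, a subunit of the replicative helicase, had 6.63 and 8.02 CPM with GSK591, 17.6 and 17.0 with MS023 and 26.1 and 25.5 untreated (-1.24, SE 0.155, adjusted p = 7.2e-08). Its levels fell into 3 steps without overlap, as did those of RRM2, the small subunit of ribonucleotide reductase, with 15.8 and 13.9, 29.0 and 30.4, and 52.7 and 56.6 CPM in the same order (-0.999, adjusted p = 5.4e-08). MCM4 differed by -1.09 (adjusted p = 2.5e-08).

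The mitosis list has 63 genes, 24 lower with GSK591 than with MS023 and 1 higher, with a median of -0.82. AURKB, the kinase of the chromosomal passenger complex, had 5.76 and 6.92 CPM with GSK591, 23.4 and 21.6 with MS023 and 34.0 and 37.8 untreated. Each group was separate from the others, and the difference was -1.83 (SE 0.149, adjusted p = 3.8e-13). ESPL1, the protease that frees sister chromatids, differed by -1.12 (adjusted p = 6.5e-07) and the kinesin KIF18B by -1.11 (adjusted p = 4.9e-08). Against untreated cells GSK591 called 42 of the 63 lower (median -1.33) and MS023 15 (median -0.56), and each called 1 higher.

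Leaving out a library left 13, 15, 16 and 17 replication genes lower and 13, 14, 15 and 15 mitosis genes lower, for GSK591 replicate 1, GSK591 replicate 2, MS023 replicate 1 and MS023 replicate 2 in that order.

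CCNB2, a mitotic cyclin, was the member higher with GSK591. It had 26.2 and 30.2 CPM with GSK591, 13.4 and 13.3 with MS023 and 26.9 and 28.0 untreated (1.08, SE 0.144, adjusted p = 3.4e-07). The authors' deposited tables go the other way: their log2 fold change against untreated is -1.32 with GSK591 and -0.38 with MS023. The sign for CCNB2 therefore differs between these counts and the authors' values.

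DNA repair by recombination followed the same pattern in part. Of 38 recombination and Fanconi genes 9 were lower and 1 higher, with a median of -0.41. BRCA1, which recruits the recombination machinery, had 5.76 and 5.82 CPM with GSK591, 15.9 and 18.1 with MS023 and 19.7 and 17.9 untreated (-1.55, adjusted p = 4.0e-05), and its exons overlap genes on both strands. EXO1, a nuclease of end resection, differed by -1.37 (adjusted p = 0.00041), FANCD2 by -1.05 (adjusted p = 0.0027) and XRCC2 by -1.30 (adjusted p = 0.00087, lost without GSK591 replicate 1 at 0.0967). The numbers lower were 3 and 6 without GSK591 replicates 1 and 2, and 5 without either MS023 library. Centrosome genes were close to the background, with 2 of 41 lower and none higher. PLK4, the kinase that starts centriole copying, differed by -1.06 (adjusted p = 0.00053), and CEP78 by -0.53 (adjusted p = 0.011), a call kept only without GSK591 replicate 1 and not made by DESeq2.

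**Figure D3:**
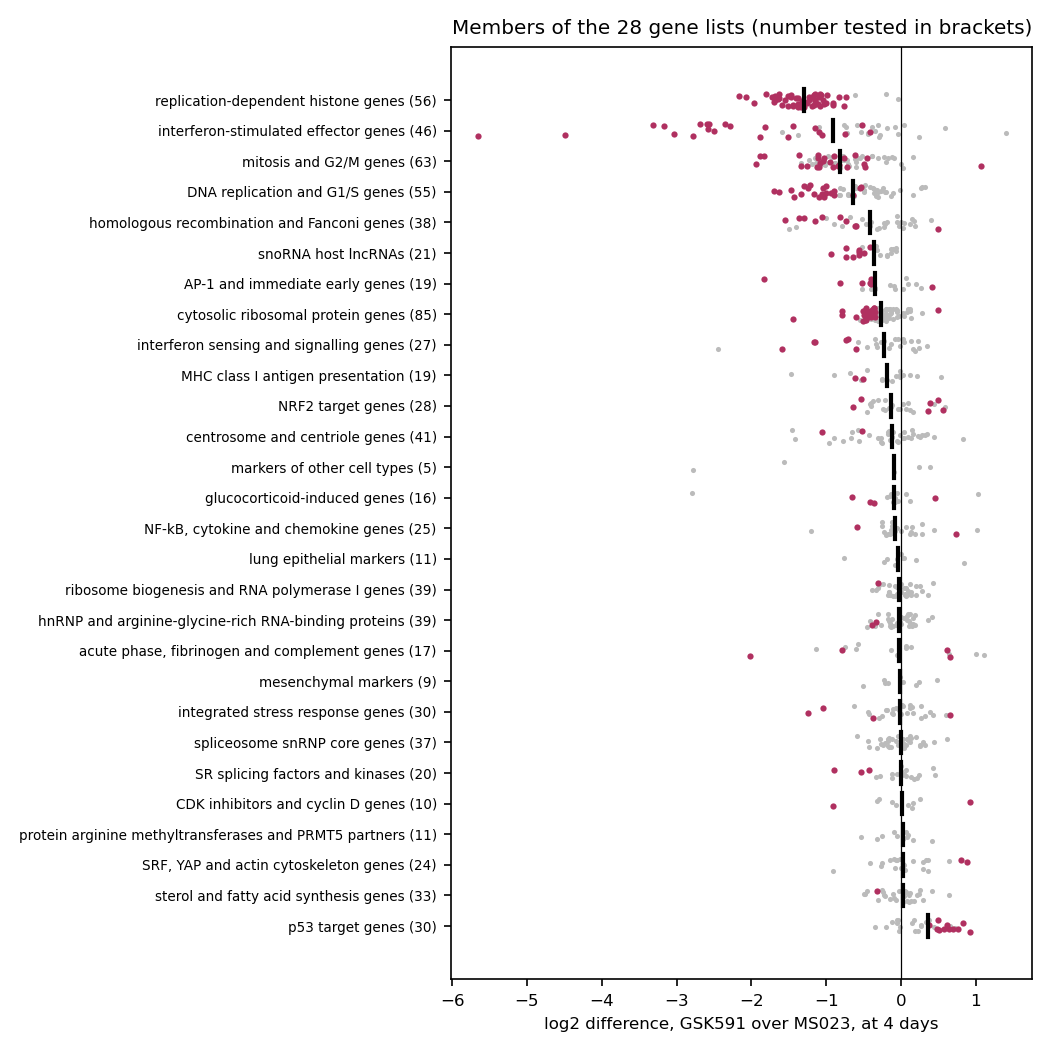
Log2 differences of GSK591 over MS023 at 4 days (x axis) for the tested members of 28 gene lists (rows, ordered by median), with called genes in red, others in grey and the list median as a black bar. Histone, interferon, mitosis and replication lists lie lowest with medians from -1.29 to -0.64, p53 targets lie highest at 0.36, and most other lists are centred near 0.

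All calls among targets of p53 were toward higher levels with GSK591. A549 cells carry an intact p53, the factor that activates genes of cell cycle arrest and cell death after damage. Of 30 listed targets 11 were higher with GSK591 and none was lower, with a median of 0.36. CDKN1A, the cell cycle inhibitor p21, had 23.1 and 24.9 CPM with GSK591, 11.3 and 14.0 with MS023 and 10.3 and 11.1 untreated (0.93, SE 0.142, adjusted p = 6.7e-06). MDM2, the ligase that degrades p53, had 79.7 and 84.8 CPM against 47.0 and 55.0, with 43.5 and 42.3 untreated (0.69, SE 0.109, adjusted p = 1.3e-05). In both genes the GSK591 libraries lay above the other 4, and the MS023 libraries lay above both untreated ones by less.

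FDXR, a mitochondrial electron carrier, had 27.8 and 26.8 CPM with GSK591 against 15.5 and 16.7 (0.76, adjusted p = 5.7e-05), and PHLDA3, a brake on AKT, had 45.7 and 48.1 against 29.0 and 33.9 (0.58, adjusted p = 0.0017; 0.0979 without MS023 replicate 1). GDF15, a secreted stress signal, did not differ beyond the spread (94.6 and 90.2 against 92.0 and 99.5, -0.05, adjusted p = 0.87) and was above untreated with both inhibitors; it was picked after its values were seen. Against untreated cells GSK591 called 13 higher and 1 lower, and MS023 4 higher and none lower.

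Counts of p53 targets called depended on the scaling: none was called when libraries were scaled by total counts (median 0.03), where every gene shifts toward lower with GSK591. They were 4 without GSK591 replicate 1, 7 without GSK591 replicate 2 and 5 without either MS023 library. DESeq2 called 7.

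Of 85 cytosolic ribosomal protein genes tested 24 were lower and 1 was higher, RPS27L, which is also in the p53 list, with a median of -0.27. RPS16 had 69.0 and 69.5 CPM with GSK591, 96.0 and 99.0 with MS023 and 126 and 129 untreated (-0.49, SE 0.0989, adjusted p = 0.0006), in 3 steps without overlap. RPL9 differed by -0.79 (adjusted p = 9.6e-05) and RPL10 by -0.60 (adjusted p = 0.00035; 0.12 without GSK591 replicate 1), and both overlap exons of other genes. The number lower was 6 and 13 without GSK591 replicates 1 and 2, 13 and 7 without MS023 replicates 1 and 2, and 13 under DESeq2.

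Long non-coding genes that host small nucleolar RNAs were lower in 9 of 21 with none higher (median -0.36). SNHG1 had 14.6 and 14.0 CPM with GSK591, 25.4 and 29.6 with MS023 and 48.6 and 44.5 untreated (-0.94, adjusted p = 1.6e-06), and GAS5 differed by -0.56 (adjusted p = 0.00039). Their exons overlap those of other genes. Without GSK591 replicate 1 or 2, 5 were called, and 7 and 6 without MS023 replicates 1 and 2. Ribosome biogenesis factors, by contrast, had 1 of 39 lower and a median of -0.03. That gene, NOP56 (-0.31, adjusted p = 0.048), lost its call without any 1 library and under DESeq2.

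Calls among splicing genes, whose products are well known substrates of these enzymes, stand beside 6.03% of all genes called between the inhibitors. No gene of 37 in the spliceosome list was called by edgeR (2 with an unadjusted p below 0.05) or by DESeq2, with a median of 0.00. Of 20 SR protein and kinase genes 3 were lower: SRSF2 (5.47 and 4.61 CPM against 10.2 and 8.69, -0.90, adjusted p = 0.0019), TRA2B (-0.53, adjusted p = 0.0058) and SRSF7 (-0.43, adjusted p = 0.009). The call of SRSF2 and that of SRSF7 were lost without GSK591 replicate 2 or MS023 replicate 1, and that of TRA2B without GSK591 replicate 1 or MS023 replicate 1.

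Of 39 hnRNP and arginine-glycine-rich protein genes 2 were lower, HNRNPA0 (-0.39, adjusted p = 0.018) and HNRNPA1 (-0.33, adjusted p = 0.029), and the median was -0.03. The call of HNRNPA1 was lost without any 1 library and under DESeq2, and that of HNRNPA0 was kept only without MS023 replicate 1. This list moved against untreated cells with each inhibitor, 26 genes lower with GSK591 (median -0.62) and 24 lower and 1 higher with MS023 (median -0.56). HNRNPA1, which packages nascent transcripts, had 41.7 and 43.2 CPM with GSK591, 52.9 and 54.2 with MS023 and 94.2 and 92.0 untreated.

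The genes of the methyltransferases themselves were also examined. None of 11 tested genes for the enzymes and the partners of PRMT5 was called by edgeR (1 had an unadjusted p below 0.05) or DESeq2, with a median of 0.02. PRMT1 had 35.2 and 35.4 CPM with GSK591, 43.3 and 44.9 with MS023 and 56.2 and 55.8 untreated (-0.32, SE 0.109, adjusted p = 0.071), and was below untreated with both inhibitors (adjusted p = 1.1e-05 and 0.021). Its exons overlap genes on both strands. PRMT5 had 6.63 and 5.72 CPM with GSK591 and 8.31 and 6.41 with MS023 (-0.25, SE 0.194, adjusted p = 0.56), and CARM1 7.87 and 5.72 against 5.61 and 4.56 (0.42, SE 0.231, adjusted p = 0.35). PRMT6 had at most 2 counts in a library and was not tested. These inhibitors block enzyme activity, so levels of the target genes do not check the treatment.

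Outside the lists lay 1159 of the 1382 called genes. The lists hold 846 of the 22919 genes tested, so most genes lie outside them, called or not. GREM1, a secreted antagonist of bone morphogenetic proteins, moved in opposite directions: it had 2.98 and 4.71 CPM with GSK591, 26.4 and 27.0 with MS023 and 11.8 and 11.4 untreated. The difference was -2.80 (SE 0.201, adjusted p = 6.6e-15), with -1.59 against untreated for GSK591 (adjusted p = 4.8e-07) and 1.20 for MS023 (adjusted p = 9.4e-07). Its neighbour GREM1-AS1, on the opposite strand and overlapping it, had 6.43 and 5.82 against 30.5 and 41.2 CPM (-2.55, adjusted p = 2.2e-16), so reads of the pair cannot be told apart without strand.

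DNAJB5, a heat shock protein cochaperone, had the largest difference toward higher levels with GSK591 among called coding and long non-coding genes whose mean reached 5 CPM. It had 21.0 and 19.3 CPM with GSK591, 4.97 and 4.34 with MS023 and 9.68 and 10.4 untreated (2.11, SE 0.162, adjusted p = 5.2e-14). All 3 groups were separate, but the authors' deposited tables list it below untreated with both inhibitors, -0.67 with GSK591 and -0.30 with MS023. Neither value passed 0.05 in their DESeq2 column of adjusted p (0.054 and 0.29). Both values of CCNB2 did (2.65e-10 and 0.043). The sign of DNAJB5 therefore differs between the sources, as does that of CCNB2, but on weaker values of the authors.

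KIAA1614 (8.55 and 10.6 against 3.34 and 3.06 CPM, 1.58, adjusted p = 1.3e-06) and FOXQ1, a forkhead factor (7.68 and 8.93 against 3.27 and 3.35, 1.32, adjusted p = 2.3e-05), were near untreated with GSK591 and low with MS023. FBXW10, an F-box gene (16.4 and 17.8 against 5.90 and 6.55 CPM, 1.45, adjusted p = 4.2e-07), DGKI, a diacylglycerol kinase (9.89 and 11.1 against 5.05 and 3.70, 1.26, adjusted p = 3.4e-05), and PNPLA8, a phospholipase (7.87 and 7.72 against 2.77 and 3.13, 1.40, adjusted p = 0.00023), were high with GSK591. CPM, the gene for carboxypeptidase M, had 19.98 and 19.1 against 7.18 and 6.91 CPM (1.47, adjusted p = 1.2e-08) and overlaps MDM2 on the opposite strand. NKG7 (1.44, adjusted p = 5.2e-05), a cytotoxic granule protein gene, and ZDHHC11 (1.22, adjusted p = 0.00044), a palmitoyltransferase gene, were also higher, while the non-coding MIR663AHG (1.48, SE 0.413, adjusted p = 0.047) lost its call without any 1 of the 4 libraries.

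The genes just past the 10 named in each direction were ODF3 at 1.21 and KLF2 at -1.83. KLF2, a Krüppel-like factor in the list of early response genes, had 10.8 and 11.0 CPM with GSK591, 35.6 and 41.7 with MS023 and 35.5 and 35.4 untreated (adjusted p = 1.4e-11), so the GSK591 libraries were set apart from both others. Of the 19 early response genes tested 6 were lower and 1 higher, JUND among the lower (-0.82, adjusted p = 4.4e-06). The number lower was 2 and 4 without GSK591 replicates 1 and 2, and 5 and 3 without MS023 replicates 1 and 2.

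The lists of acute phase genes (2 higher and 2 lower of 17) and of the integrated stress response (1 higher and 3 lower of 30, median -0.01) had calls in both directions in edgeR. DESeq2 called 1 higher and 1 lower of the acute phase genes, and 0 higher and 3 lower of the stress genes. With total counts 0 were higher in either list, and 2 acute phase genes and 5 stress genes were lower. FGA, the alpha chain of fibrinogen, had 20.7 and 20.9 CPM with GSK591, 33.5 and 38.1 with MS023 and 2.45 and 2.42 untreated (-0.78, SE 0.137, adjusted p = 7.6e-05), in 3 steps without overlap. In the stress list, STC2 was lower with GSK591 (8.93 and 5.82 against 17.9 and 17.3 CPM, -1.25, adjusted p = 4.9e-08). NUPR1, a stress-induced chromatin protein, had 12.3 and 10.5, 24.3 and 22.8, and 4.89 and 5.74 CPM in the same order (-1.04, adjusted p = 1.2e-05). PTGS2, the inducible cyclooxygenase, differed by -0.59 (adjusted p = 0.03) and the CDK inhibitor CDKN1C by -0.91 (adjusted p = 0.047), but DESeq2 did not call PTGS2, whose call held only without GSK591 replicate 2, and that of CDKN1C was lost without any 1 library. Among NRF2 targets, ABCC3, a drug exporter, was higher with GSK591 (0.56, adjusted p = 0.00019) and OSGIN1 lower (-0.64, adjusted p = 5.2e-05), with 4 higher and 2 lower of 28. With 1 library left out 1 or 2 were higher and 1 or 2 lower, DESeq2 called 2 higher and 1 lower, and with total counts none was higher and 5 were lower.

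Of 24 actin, SRF and YAP genes 2 were called, both higher with GSK591: TPM1 and TPM2, which encode tropomyosins. TPM1 fell with each inhibitor against untreated cells. It had 77.0 and 83.0 CPM with GSK591, 42.9 and 44.2 with MS023 and 123 and 108 untreated (0.88, SE 0.122, adjusted p = 1.1e-06), and TPM2 differed by 0.80 (adjusted p = 0.0019), a call lost without GSK591 replicate 2 (0.0527) or MS023 replicate 1 (0.0597). Both lost their call with total counts, as did ABCC3, ZDHHC11 and MIR663AHG. The lists of sterol synthesis (1 of 33 called), glucocorticoid-induced genes (4 of 16, and 1 of 16 with any single library left out) and markers of epithelium and mesenchyme (0 of 11 and 0 of 9 in edgeR and DESeq2; 3 and 1 with an unadjusted p below 0.05) had medians within 0.10 of 0.

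The authors' deposited tables of each inhibitor against untreated cells were set beside these counts, but may count other features: their mean for BRCA1 is 520.8 and for IRF7 22.5, where the count table has 58 to 254 and 130 to 456 reads in the 6 libraries. Their MS023 value was subtracted from their GSK591 value, as both are against untreated cells. Of the 1026 called genes that could be matched by symbol, 913 had the same sign there (89.0%), 563 of 593 called lower (94.9%) and 350 of 433 called higher (80.8%), beside 68.2% of all 15378 matched genes. All 19 matched interferon genes called lower and all 13 matched histone genes kept their sign, as did all 8 matched p53 targets. The authors' tables belong to the same series, and these genes were picked by their calls here. Shared signs are therefore no independent check. Signs differed in 4 of 70 named genes matched: CCNB2, DNAJB5, FADS1 and MIR663AHG. For MIR663AHG the authors' mean was 0.995 and their values lay near 0, -0.010 with GSK591 and -0.005 with MS023. Sizes also differed: genes called higher had a median of 0.74 here and 0.38 there, and genes called lower -0.78 and -0.56. PNPLA8 was 1.40 here and 0.05 there. These sizes are not like for like, as the genes were picked by their calls here. Nor is it stated whether the authors' values were pulled toward 0.

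Called protein-coding genes differed in structure by direction. Those lower with GSK591 had a median annotated span of 14.3 kb (660 genes), those higher 25.5 kb (428 genes) and all tested 31.19 kb. Without the histone list the genes lower still had a median of 17.51 kb, and 5.44% had a single exon, against 1.17% of the genes higher and 2.26% of all tested. These medians are descriptions across genes. Several of the genes named have exons that overlap another annotated gene, CDKN1A, SRSF2, TPM1, PNPLA8, PHLDA3 and TGM2 among them, so their reads may be shared.

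The difference between the inhibitors was set against that at 2 and at 7 days. At 4 days it was larger or smaller than at 2 days in 43 genes (0.188%) by edgeR's test of the difference of differences, 6 with a higher and 37 with a lower value at 4 days. Of these, 12 were histone genes, 5 replication genes, 4 interferon effector genes and 3 mitosis genes, each lower at 4 days. H3C14 had 181 and 190 CPM with GSK591 at 2 days against 259 and 274 with MS023, and its difference widened by -1.12 (SE 0.152, adjusted p = 4.1e-05). AURKB had 18.1 and 18.3 against 29.0 and 29.3 at 2 days and widened by -1.15 (adjusted p = 0.0023). Leaving out replicates 1 and 2 of each group in turn gave 11 and 21 calls (GSK591, 4 days), 33 and 14 (MS023, 4 days), 27 and 16 (GSK591, 2 days) and 14 and 23 (MS023, 2 days). With total counts none of these differences was called (602 had an unadjusted p below 0.05 in edgeR), and DESeq2 called 28.

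From 4 to 7 days 64 genes differed (0.279%), 15 with a higher and 49 with a lower value at 4 days, 9 of the latter interferon effector genes and 1 a histone gene. With MS023, IFIT1 went from 6.26 and 8.68 CPM at 2 days to 13.6 and 17.4 at 4 days, then to 1.42 and 1.59 by day 7, while with GSK591 it stayed between 1.73 and 2.81 in all 6 libraries. The 2 libraries of MS023 at 7 days were below all 6 of GSK591, and the change between the times was -3.39 (SE 0.439, adjusted p = 4.0e-06). HELZ2 had 35.3 and 37.2, 74.9 and 75.1, and 32.9 and 35.2 CPM with MS023 at the 3 times (-1.60, SE 0.187, adjusted p = 2.7e-07).

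In H3C14 no such return was called. It had 64.2 and 69.5 CPM with GSK591 and 198 and 199.98 with MS023 at 7 days (change -0.07, SE 0.153, adjusted p = 0.95). TGM2, a transglutaminase, did not differ at 4 days (24.9 and 26.4 against 25.4 and 25.9 CPM) but had 20.7 and 22.4 with GSK591 and 7.22 and 7.17 with MS023 at 7 days (-1.58, SE 0.184, adjusted p = 2.7e-07). The same left 30 and 36 calls (GSK591, 4 days), 36 and 40 (MS023, 4 days), 49 and 31 (GSK591, 7 days) and 48 and 32 (MS023, 7 days). With total counts 2010 genes were called and the share higher at 4 days went from 23.4% to 99.6%, with the median of all genes at 0.72; IFIT1 kept its call (-2.67, adjusted p = 0.0043) and HELZ2 (-0.86, adjusted p = 0.0537) and TGM2 (-0.86, adjusted p = 0.0623) did not.

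**Figure D4:**
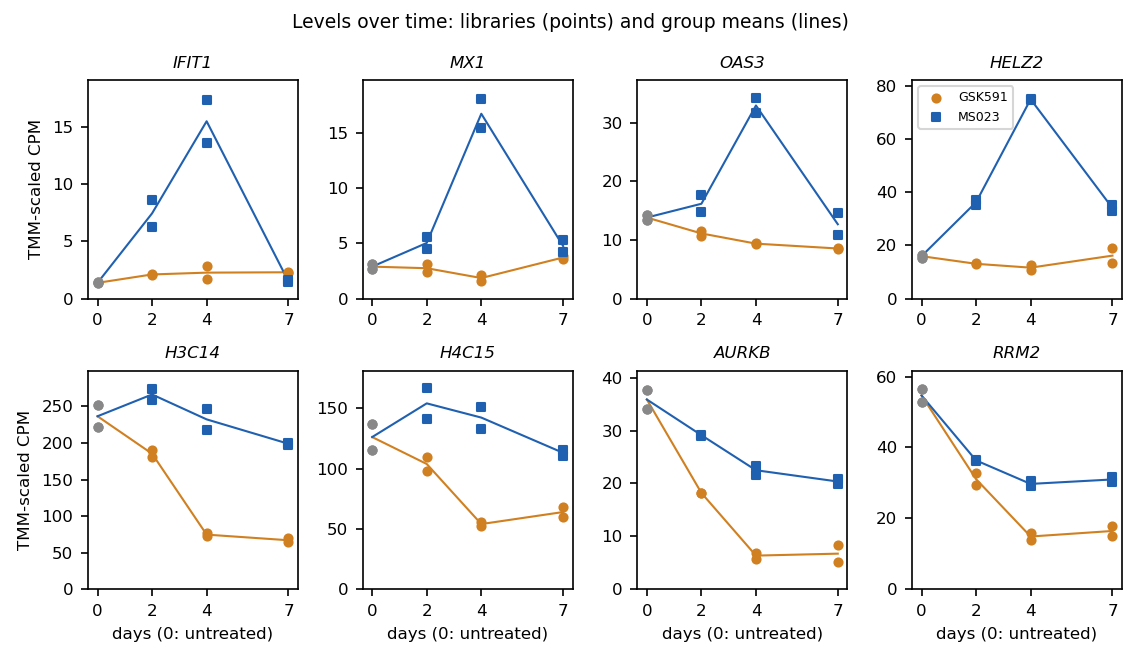
Levels of 8 genes in TMM-scaled CPM (y axis) by days of inhibitor (x axis), with 2 libraries per time (points, untreated in grey at 0) and group means (lines) for GSK591 (orange circles) and MS023 (blue squares). The 4 interferon genes peak at 4 days with MS023, while H3C14, H4C15, AURKB and RRM2 fall with GSK591 to 4 days and are still low at 7 days.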

How the data were processed

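The counts are the deposited matrix of PRO-seq reads per gene, made by the authors with featureCounts 2.0.1 (Subread) on hg38, per the submitters' processing notes; the aligner, the feature counted and the use of strand are not given in the sources used here. All 30 value columns were matched to samples by name and 0 were left unmatched. The members and gene lists were chosen with earlier results of these data known.

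Genes with enough reads (edgeR's filterByExpr, minimum count 10 and minimum total 15) were fitted in edgeR 4.0.16 (R 4.3.3) with TMM scaling and robust quasi-likelihood dispersions. All 30 libraries in 15 groups entered, leaving 15 residual degrees of freedom and a common biological coefficient of variation of 10.6%. The contrasts were GSK591 against MS023 at 4 days, each against untreated, and the change of the inhibitor difference from 2 and from 7 days. P-values were Benjamini-Hochberg adjusted over all 22919 genes, and a call needs less than 0.05. CPM values are computed here from the counts. Same-numbered replicates were not paired (correlation of deviations 0.0433). Gene positions come from GENCODE 29, whose identifiers matched all 58780 rows; promoter windows come from RefSeq.

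Named genes were the 10 with the largest and the 10 with the smallest log2 difference among called protein-coding and long non-coding genes whose mean reached 5 CPM and whose libraries did not overlap, up to 4 called members of each list with the smallest p, the genes PRMT1, PRMT5, CARM1 and PRMT6, and the 3 called genes with the smallest p in each change with time. Others named were picked with their values in view. Some genes that the rule names are not reported here. The authors' deposited tables hold log2 fold changes against untreated cells with p-values, and a mean normalised signal per gene; their column names are those of DESeq2, per the file headers, and only the sign of the log2 values was used beyond the values quoted. Alternatives were other scalings, filters, DESeq2 1.42.0, a replicate block, the compared groups alone and each library left out.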

Additional observations from a re-analysis of the deposited data

Results flagged for a closer look

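These results passed edgeR's test of whether the difference between GSK591 and MS023 changed with time (Benjamini-Hochberg adjusted p below 0.05 over all genes tested). Each value is the log2 difference of GSK591 over MS023 at 4 days minus that at the other time, so a negative value means that GSK591 lay further below MS023 at 4 days.

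Against 7 days, interferon genes gave the most negative values: OASL -3.70 (SE 0.641, adjusted p = 0.0011), IFIT1 -3.39 (SE 0.439, adjusted p = 4.0e-06) and MX1 -2.81 (SE 0.389, adjusted p = 1.5e-05). HELZ2 gave -1.60, OAS3 -1.24 and IRF7 -1.03. With MS023, OASL went from 10.8 and 9.41 CPM at 2 days to 12.4 and 13.2 at 4 days, then to 0.708 and 0.724 by day 7. STC2, a secreted glycoprotein gene of the stress response, gave -1.10: it had 8.93 and 5.82 CPM at 4 days and 25.7 and 22.6 at 7 days with GSK591. TGM2 gave -1.58, from a drop with MS023 at 7 days. These values depend on the scaling: with total counts 2002 genes were called with a higher and 8 with a lower value at 4 days. HELZ2 and TGM2 then lost their call, as given above.

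Against 2 days, MX1 gave -2.28, OAS3 -1.28, HELZ2 -1.22 and GREM1-AS1 -1.18. Histone genes gave -1.40 for H2BC14, -1.12 for H3C14, -1.06 for H3C15, -0.83 for H4C15 and -0.69 for H4C14. Cell cycle genes gave -1.51 for E2F2, -1.15 for AURKB, -1.11 for KIF18B, -0.82 for MCM4 and -0.77 for RRM2. FOXQ1 moved the other way, 1.57 (adjusted p = 0.0097), with 6.18 and 4.94 CPM with GSK591 and 5.87 and 7.20 with MS023 at 2 days. None of the changes against 2 days passed the test with total-count scaling, as given above.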

How the results depend on the processing

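The 1382 calls between the inhibitors were 1358 with total counts and 1402 with DESeq2's size factors in edgeR, but 738 with DESeq2 and 2402 with the compared groups alone, and 594 to 740 with 1 library left out. DESeq2 made 729 of the 1382 calls, and the fits without a library 572 to 706, all in the same direction. Against untreated, GSK591 had 2483 calls with DESeq2 and 2140 to 2375 with a library left out; MS023 had 1869, 1475 to 1936, and 11285 with total counts. The change from 2 days was called in 28 genes by DESeq2, 75 without the filter on low counts, 175 with the groups alone, 0 with total counts and 11 to 33 with a library left out. That from 7 days was called in 40, 276 with the groups alone, 2010 with total counts and 30 to 49. The causes were not tested. With a replicate block the 5 counts were 1449, 4018, 3355, 51 and 77, and no call of a named gene at 4 days changed. Of 88 named genes called, 54 kept the call without each library in turn, 13 lost it under DESeq2 and 16 with total counts. Genes of a few counts, such as IFI6, limit what the depth of 2 libraries can show. No called gene reported here changed its sign; list medians near 0 did, such as the methyltransferases (0.02, -0.30 with total counts) and the spliceosome (0.00, -0.33).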

Other observations

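Of 23 ribosomal RNA genes tested, 4 were higher with GSK591 than with MS023 and none was lower, and of 2 mitochondrial ribosomal RNA genes 1 was higher. They were chosen after their values were seen, and the 4 are near-identical copies whose reads cannot be assigned. RNA5-8SN1 differed by 1.35 to 1.38 together with its copies RNA5-8SN2, RNA5-8SN3 and RNA5-8SP10 (edgeR, adjusted p from 0.0044 to 0.0052). The mitochondrial ribosomal gene MT-RNR1 differed by 1.34 (edgeR, adjusted p = 0.00077). Ribosomal RNA genes took 0.396% and 0.486% of the counts with GSK591 and 0.257% and 0.195% with MS023.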
